A study of Mus musculus with 11 samples.

Results

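The genes described here are 36 genes by which macrophages are usually recognised: the receptor and transcription factors of the lineage, general macrophage and leukocyte surface markers, Fc receptors with their adaptors, scavenger receptors, and receptors known from tissue-resident macrophages and microglia. They were matched by gene symbol among the 49671 genes of the deposited count table, and 35 of the 36 passed the filter on low counts and were tested, Folr2 being the exception. Each was followed through 11 libraries of cells sorted from the adrenal glands of male mice of the strain Nes-GFP, in which green fluorescent protein (GFP) marks cells that use the regulatory sequence of Nestin. The 4 groups were GFP-positive cells of the cortex (3 libraries; mice aged 3.5, 3.5 and 2.5 months), GFP-negative cells of the cortex (3 libraries; 3.5, 3.5 and 2.5 months), GFP-positive cells of the medulla (3 libraries; 3.5, 2.5 and 2.5 months) and GFP-negative cells of the medulla (2 libraries; 3.5 months each). All groups carried the transgene, and all came from glands of 6 PBS-perfused mice that were pooled by 2, digested with collagenase, treated to lyse red blood cells and stained with propidium iodide. The labels tie no library to a pool, and they name no antibody or gate against leukocytes. As labelled, the GFP-negative gate can hold any cell type of its tissue without GFP, and the p-values below measure the spread between these libraries.

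Macrophages arise from embryonic precursors that settle in tissues and from blood monocytes. They depend on the receptor CSF1R, which binds the ligands CSF1 and IL-34, and on the transcription factor PU.1, which opens and holds active many genes of the lineage. Surface receptors for antibody, modified lipoprotein, sugars, nucleotides and dying cells let them engulf and degrade what they meet, and the mix of these receptors differs between resident macrophages of different tissues. The adrenal gland holds resident macrophages in its cortex and its medulla.

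Total counts ran from 18500690 to 29204212 per library, and 3 counts, the limit taken for a gene with 0 counts, correspond to 0.104 to 0.157 CPM per library (CPM being the count scaled to a fixed total by library size); such limits and intervals cover counting error alone. Nes itself averaged 44.5 ± 8.19 CPM in GFP-positive cortex and 6.40 ± 1.57 CPM in GFP-negative cortex (SD, n = 3 each). In the medulla it averaged 109 ± 60.2 CPM in GFP-positive (SD, n = 3) and 21.1 ± 7.08 CPM in GFP-negative cells (SD, n = 2). The GFP-positive libraries were thus higher in Nes in both tissues (edgeR quasi-likelihood test, adjusted p = 0.00136 in the cortex and 0.00406 in the medulla).

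The 36 macrophage genes together were low in GFP-positive cells, highest in GFP-negative cells of the medulla, and between these in GFP-negative cells of the cortex. Their summed level was 259.9, 371 and 127 CPM in the GFP-positive cortex libraries, against 4086, 4291 and 5611 CPM in the GFP-negative cortex libraries. It was 1530.3, 1372 and 622 CPM in the GFP-positive medulla libraries, against 24063 and 22006 CPM in the GFP-negative medulla libraries. No library of one group reached the range of another group. As a share of all counts, the genes took 0.0127% to 0.0343% in GFP-positive cortex, 0.417% to 0.586% in GFP-negative cortex, 0.0644% to 0.155% in GFP-positive medulla, and 2.21% and 2.26% in GFP-negative medulla. In bulk libraries of this kind, fewer macrophages in a gate and less macrophage RNA per cell cannot be told apart. Without Lyz2, the most abundant of the genes, the sums kept their order, at 118 to 261 CPM in GFP-positive cortex, 2461 to 3739 CPM in GFP-negative cortex, 403 to 761 CPM in GFP-positive medulla, and 13155 and 13536 CPM in GFP-negative medulla.

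**Figure D1:**
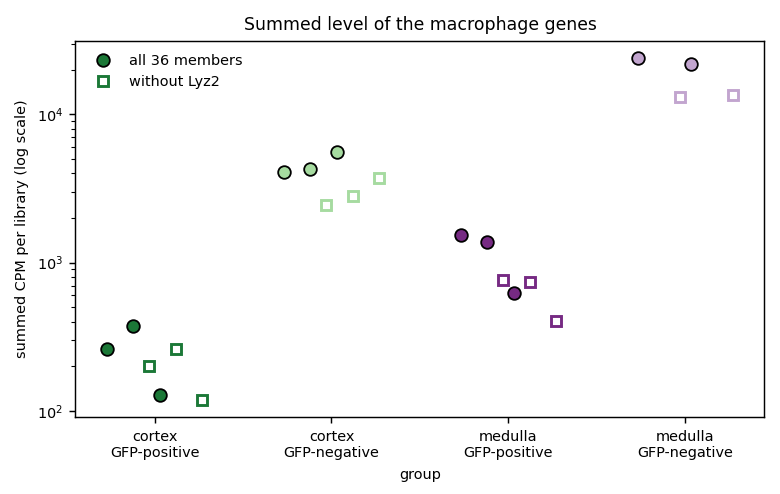
Summed level of the macrophage genes in each library, in CPM on a log axis, with filled circles for all 36 genes and open squares for the sum without Lyz2; each point is 1 library. The GFP-positive cortex libraries (127 to 371 CPM) and the GFP-positive medulla libraries (622 to 1530.3 CPM) lie below the GFP-negative libraries of their own tissue.

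Levels were compared between genes per kilobase of gene length. Lyz2, a lysozyme, had the highest level per length in every group, with 47.7 ± 39.7 CPM per kb in GFP-positive cortex, 1308 ± 160.2 in GFP-negative cortex, 428 ± 227 in GFP-positive medulla (SD, n = 3 each) and 7653 ± 1362 in GFP-negative medulla (SD, n = 2). Tyrobp, Fcer1g, Fcgr3 and Cd14 took the ranks 2 to 5 in every group, in changing order. At the low end, Timd4, Marco and Folr2 were the lowest 3 genes per length in GFP-negative cortex and in GFP-negative medulla. The rank of P2ry12 changed most visibly: it ranked 8 in GFP-positive medulla, against 23 in GFP-negative medulla, 19 in GFP-positive cortex and 29 in GFP-negative cortex.

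**Figure D2:**
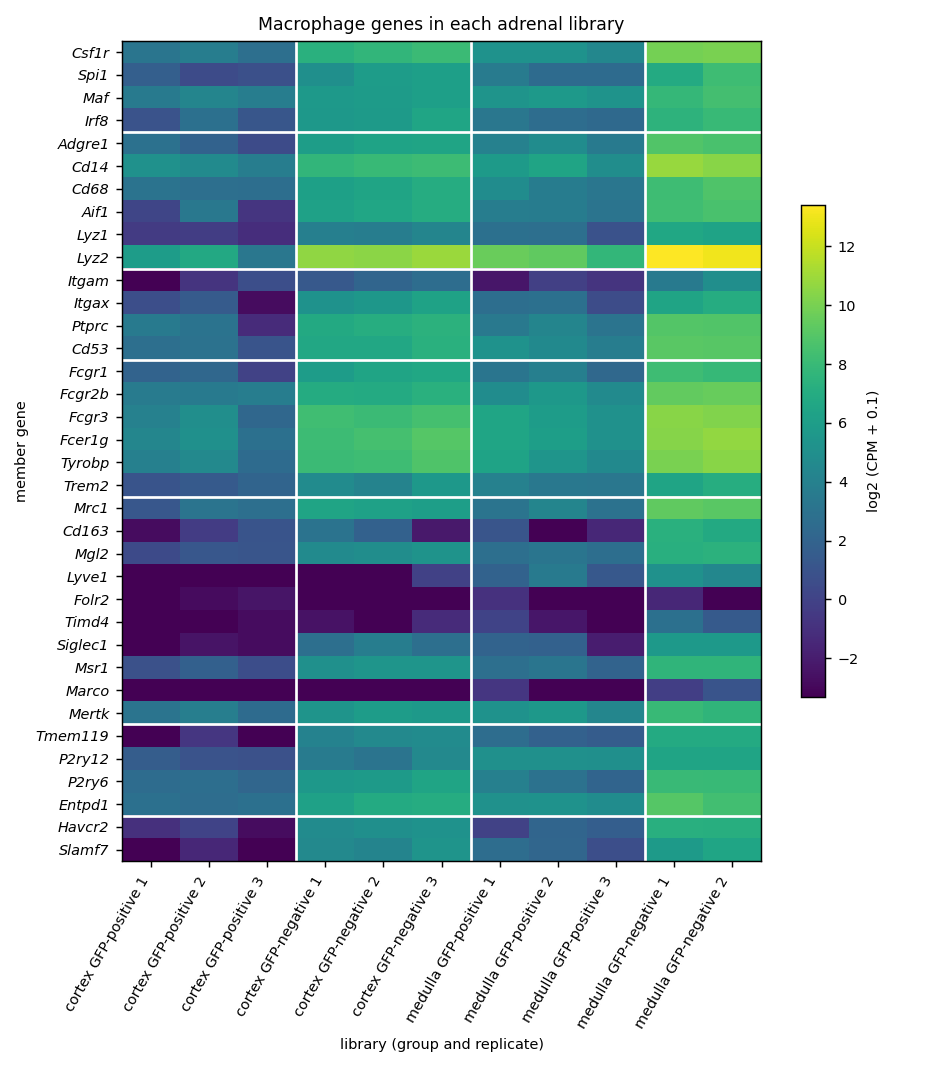
Level of each of the 36 genes in each of the 11 libraries, as log2 (CPM + 0.1); rows are grouped by role in the order of the text (white lines) and columns by group. The GFP-negative medulla columns are the brightest for nearly all rows, the GFP-positive cortex columns the darkest, and Folr2 and Marco are near 0 CPM throughout.

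Between GFP-positive and GFP-negative cells of the cortex, 30 of the 35 tested macrophage genes were lower in GFP-positive cells and none was higher, where 7.59% of all 20893 genes tested were called lower and 7.14% higher (edgeR quasi-likelihood test, Benjamini-Hochberg adjusted p under 0.05). The median log2 fold change of the 35 genes was -4.17, beside 0.03 over all genes tested. In 31 of the 36 genes every GFP-positive library lay below every GFP-negative one; 19.4% of all genes did so. The 30 calls held under each of 19 alternatives, which included leaving out each library. In the medulla, 32 of the 35 were lower in GFP-positive cells and none was higher, where 11.1% of all genes were called lower and 10.2% higher. The median was -4.48, beside 0.09 over all genes, and in 35 of the 36 genes the groups did not overlap in that direction, as for 22.5% of all genes. All but P2ry12 and Itgam of the 32 kept their call under each of the 19 alternatives. In the medulla the GFP-negative libraries came from older mice on average, and with age as a covariate the count stayed at 32. With scaling by total counts alone, the split over all genes in the cortex moved to 1244 higher and 2032 lower, beside 1492 higher and 1586 lower with TMM scaling, and the 30 macrophage genes stayed lower.

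The lineage receptor and its transcription factors fell together. Csf1r (chr18:61105572-61132149, mm10, forward strand), the receptor for CSF1 and IL-34, shares 17.8% of its exonic bases with a gene on the opposite strand (Hmgxb3). It had 9.00, 13.8 and 6.94 CPM in GFP-positive cortex, against 157, 203 and 268 CPM in GFP-negative cortex. In the medulla it had 37.4, 36.3 and 21.6 CPM in GFP-positive cells, against 974 and 1039 CPM in GFP-negative cells. No libraries overlapped in either tissue. Csf1r was 21.1-fold lower in GFP-positive cortex (log2 fold change -4.40 ± 0.33 SE, adjusted p = 7.35e-05) and 31.7-fold lower in GFP-positive medulla (-4.98 ± 0.35, adjusted p = 3.21e-05). Spi1, which encodes PU.1, fell, with log2 fold changes of -4.74 ± 0.55 in the cortex and -4.74 ± 0.55 in the medulla. Irf8, a factor of monocyte and dendritic cell development, fell, with log2 fold changes of -4.13 ± 0.53 in the cortex and -4.91 ± 0.56 in the medulla. Maf (c-Maf), a factor of mature and resident macrophages that other cell types also use, fell least of the 4. It had 11.2, 19.4 and 13.6 CPM in GFP-positive cortex against 50.4, 58.3 and 69.3 CPM in GFP-negative cortex, and 40.3, 51.8 and 38.0 CPM in GFP-positive medulla against 225 and 341 CPM in GFP-negative medulla. Its groups did not overlap in either tissue, and the log2 fold change was -2.01 ± 0.25 in the cortex (adjusted p = 0.000729) and -2.70 ± 0.27 in the medulla (adjusted p = 0.00013).

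The ligands of CSF1R ran differently from the receptor. Il34 (IL-34) had 14.0, 9.54 and 19.1 CPM in GFP-positive cortex, against 0.411, 0.587 and 0.669 CPM in GFP-negative cortex. It had 27.8, 57.8 and 17.5 CPM in GFP-positive medulla, against 0.731 and 0.162 CPM in GFP-negative medulla. Every GFP-positive library was above every GFP-negative one, and Il34 rose in GFP-positive cells of the cortex (log2 fold change 4.67 ± 0.60, adjusted p = 0.000922) and of the medulla (6.23 ± 0.77, adjusted p = 0.000425). Csf1 averaged 8.51 ± 1.90 CPM in GFP-positive cortex and 3.92 ± 2.19 CPM in GFP-negative cortex (SD, n = 3 each). In the medulla Csf1 averaged 14.6 ± 2.01 CPM in GFP-positive (SD, n = 3) and 6.52 ± 5.71 CPM in GFP-negative cells (SD, n = 2). The differences of Csf1 did not pass the test (adjusted p = 0.207 in the cortex and 0.222 in the medulla).

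**Figure D3:**
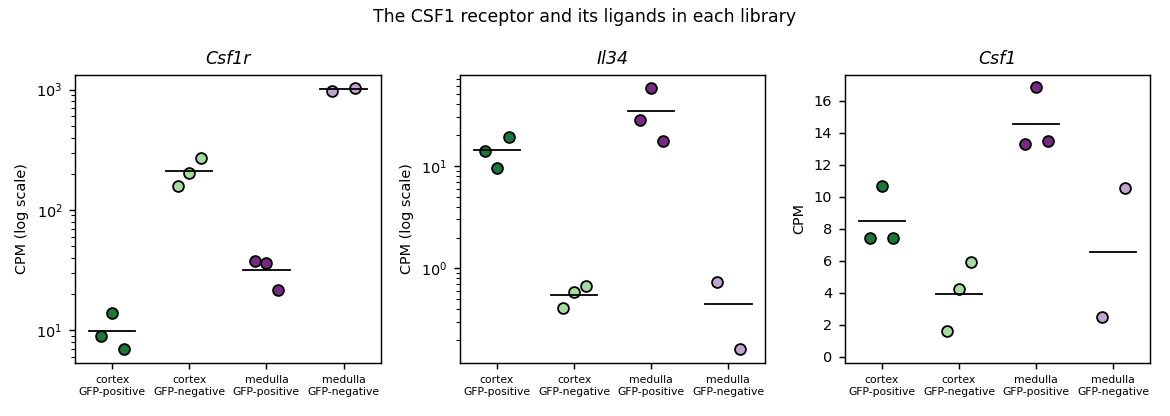
CPM of Csf1r, Il34 and Csf1 in each library (points, with a line at the group mean), on log axes for Csf1r and Il34 and a linear axis for Csf1. Csf1r is low in the GFP-positive groups (6.94 to 37.4 CPM, against 157 to 1039 CPM in the GFP-negative groups), while Il34 is high in them (9.54 to 57.8 CPM, against 0.162 to 0.731 CPM).

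PU.1 reads purine-rich sites with the core GAGGAA, the PU box, so the promoters of the macrophage genes were searched for these letters on both strands, from 250 bases before to 50 bases after each RefSeq gene start (build GRCm38.p6). The table used held a promoter for 25 of the 36 genes, and 13 of these 25 (52.0%) held the motif in at least 1 of their promoters, beside 31.3% of all 27025 genes with a promoter. Counted by promoter, 14 of 30 (46.7%) held it, beside 28.3% of all 32851. A match describes the letters and shows no binding. The first 5 genes with the motif in alphabetical order are shown, a choice that took no account of their calls. All of them are among the 30 and 32 genes lower in GFP-positive cells, as were most of the genes tested. Each line runs 5′ to 3′ on the strand of its gene, and the capitals mark the motif, as TTCCTC where it lies on the opposite strand. In Aif1 it starts 7 bases before the gene start, in Cd53 39 bases before and 8 bases after it, in Cd68 225 bases before and 29 bases after it, in the downstream start of Entpd1 235 and 227 bases before it, and in Fcgr1 55 bases before it.
Aif1 (chr17:35176003-35176302, reverse strand): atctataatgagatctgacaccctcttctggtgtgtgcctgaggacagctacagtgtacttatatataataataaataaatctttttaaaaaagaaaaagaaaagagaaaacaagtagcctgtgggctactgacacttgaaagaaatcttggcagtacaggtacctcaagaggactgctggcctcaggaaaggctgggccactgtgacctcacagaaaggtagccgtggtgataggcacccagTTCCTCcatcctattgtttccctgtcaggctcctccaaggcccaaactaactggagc
Cd53 (chr3:106790100-106790399, reverse strand): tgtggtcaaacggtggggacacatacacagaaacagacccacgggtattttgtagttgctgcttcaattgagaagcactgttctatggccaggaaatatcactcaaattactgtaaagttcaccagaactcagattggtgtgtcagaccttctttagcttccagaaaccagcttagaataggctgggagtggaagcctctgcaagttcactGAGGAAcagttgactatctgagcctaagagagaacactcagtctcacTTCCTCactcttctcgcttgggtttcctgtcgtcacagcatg
Cd68 (chr11:69666121-69666420, reverse strand): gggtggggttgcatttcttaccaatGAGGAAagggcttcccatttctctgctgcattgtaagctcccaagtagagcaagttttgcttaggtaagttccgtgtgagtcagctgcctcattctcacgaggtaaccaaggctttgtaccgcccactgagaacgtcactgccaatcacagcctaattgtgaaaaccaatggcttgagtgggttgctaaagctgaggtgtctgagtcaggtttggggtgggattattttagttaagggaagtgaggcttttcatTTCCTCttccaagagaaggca
Entpd1 (chr19:40659520-40659819, forward strand): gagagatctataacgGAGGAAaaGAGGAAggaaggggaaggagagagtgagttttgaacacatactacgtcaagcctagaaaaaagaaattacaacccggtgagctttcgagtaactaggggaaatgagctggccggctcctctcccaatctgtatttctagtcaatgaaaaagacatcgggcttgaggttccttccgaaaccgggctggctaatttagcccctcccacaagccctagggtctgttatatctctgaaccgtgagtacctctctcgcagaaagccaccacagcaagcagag
Fcgr1 (chr3:96293920-96294219, reverse strand): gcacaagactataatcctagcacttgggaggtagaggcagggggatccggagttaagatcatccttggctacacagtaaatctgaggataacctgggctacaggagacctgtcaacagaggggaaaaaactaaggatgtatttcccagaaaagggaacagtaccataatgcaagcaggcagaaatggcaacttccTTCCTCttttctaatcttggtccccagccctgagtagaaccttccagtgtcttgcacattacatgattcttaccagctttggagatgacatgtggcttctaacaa

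All 6 general macrophage markers fell in GFP-positive cells of both tissues. Lyz2 (chr10:117277334-117282274, reverse strand) had 60.8, 110.3 and 9.91 CPM in GFP-positive cortex, against 1625, 1470.3 and 1872 CPM in GFP-negative cortex. In the medulla it had 769, 638 and 219 CPM in GFP-positive cells, against 10908 and 8470.1 CPM in GFP-negative cells. The third GFP-positive library was the lowest of its group in each tissue, and no GFP-positive library came near the GFP-negative range. Lyz2 was 27.4-fold lower in GFP-positive cortex (adjusted p = 0.00294) and 17.9-fold lower in GFP-positive medulla (adjusted p = 0.00411). Its paralog Lyz1 fell, with log2 fold changes of -4.74 ± 0.52 in the cortex and -4.12 ± 0.49 in the medulla. Of the 50-base windows in Lyz1 transcripts, 16.1% also occur in Lyz2 transcripts, so part of the Lyz1 counts may come from its far more abundant paralog. Adgre1, which encodes the F4/80 antigen, fell, with log2 fold changes of -4.22 ± 0.54 in the cortex and -4.53 ± 0.55 in the medulla. Cd68, a glycoprotein of lysosomes, fell, with log2 fold changes of -3.77 ± 0.41 and -4.48 ± 0.44 in cortex and medulla, and Aif1 (IBA1), a calcium-binding protein of macrophages and microglia, with -4.67 ± 0.86 and -4.90 ± 0.88. Cd14, the co-receptor for lipopolysaccharide, fell less in the cortex than in the medulla in its point estimate, -3.28 ± 0.43 beside -4.82 ± 0.48, a difference that did not pass the test of interaction given below.

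Among leukocyte surface genes, Ptprc (CD45), carried by all nucleated blood cells, fell, with log2 fold changes of -4.44 ± 0.80 in the cortex and -5.20 ± 0.85 in the medulla. The tetraspanin gene Cd53 fell, with log2 fold changes of -4.48 ± 0.52 and -4.47 ± 0.53. Itgax, the CD11c integrin chain of dendritic cells and some macrophages, fell, with log2 fold changes of -5.24 ± 0.88 and -4.43 ± 0.85. Itgam (CD11b) had 0, 0.472 and 1.53 CPM in GFP-positive cortex, against 2.46, 4.22 and 6.22 CPM in GFP-negative cortex. In the medulla Itgam had 0.103, 0.800 and 0.470 CPM in GFP-positive cells, against 12.1 and 31.1 CPM in GFP-negative cells. It was low throughout for an integrin of myeloid cells, and its call passed in the medulla (-5.51 ± 1.19, adjusted p = 0.00849) and not in the cortex (-2.68 ± 1.03, adjusted p = 0.11). In the cortex the value ran from -4.15 to -2.10 when 1 library was left out, -4.15 being that without the third GFP-positive one, and it was called under 3 of the 19 alternatives. Without the second GFP-negative library the medulla call was lost too, with a log2 fold change of -4.68. Itgam (chr7:128062640-128118491) shares 68.7% of its exonic bases with a second annotated gene on the same strand (ENSMUSG00000108596, chr7:128062683-128128160), which had 0 to 10 counts per library. How reads in shared exons were counted is not given in the sources used here, so the level of Itgam is uncertain.

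All 6 Fc receptor, adaptor and associated receptor genes fell in GFP-positive cells of each tissue. The signalling chain Fcer1g had 20.4, 34.3 and 7.25 CPM in GFP-positive cortex, against 289, 354 and 507 CPM in GFP-negative cortex, and 89.9, 65.4 and 34.7 CPM in GFP-positive medulla, against 1343 and 1636 CPM in GFP-negative medulla. The groups stood apart in each tissue, with log2 fold changes of -4.21 ± 0.55 and -4.56 ± 0.58. Tyrobp (DAP12), the adaptor of TREM2 and other receptors, fell, with log2 fold changes of -4.47 ± 0.59 in the cortex and -4.62 ± 0.61 in the medulla. Fcgr1, the high-affinity receptor for IgG, fell, with log2 fold changes of -4.72 ± 0.57 and -4.79 ± 0.58, and Fcgr3, an activating low-affinity receptor, with -4.17 ± 0.59 and -4.38 ± 0.62. Fcgr2b, the inhibitory receptor for IgG, had 12.6, 11.9 and 13.3 CPM in GFP-positive cortex, against 126, 119 and 160.3 CPM in GFP-negative cortex, and 28.1, 49.0 and 26.0 CPM in GFP-positive medulla, against 668 and 751 CPM in GFP-negative medulla. Its log2 fold change was -3.42 ± 0.25 in the cortex (adjusted p = 6.64e-05) and -4.37 ± 0.27 in the medulla (adjusted p = 2.55e-05). Fcgr2b and Fcgr3 share 166 windows of 50 bases, 9.58% of those in Fcgr3 transcripts. Trem2, a lipid-sensing receptor that signals through Tyrobp, fell, with log2 fold changes of -3.43 ± 0.43 in the cortex and -3.18 ± 0.44 in the medulla.

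The scavenger and resident-cell receptors were the most uneven group: 5 of 9 tested fell in GFP-positive cortex and 6 of 9 in GFP-positive medulla. Mrc1 (CD206), the mannose receptor, had 2.27, 8.46 and 6.71 CPM in GFP-positive cortex against 88.8, 77.4 and 67.5 CPM in GFP-negative cortex. In the medulla Mrc1 had 8.47, 19.9 and 7.88 CPM in GFP-positive cells against 639 and 570.1 CPM in GFP-negative cells. Its log2 fold change was -3.74 ± 0.48 in the cortex and -5.64 ± 0.53 in the medulla. Cd163 (chr6:124304656-124330527), the receptor for haemoglobin bound to haptoglobin, had 158 and 113 CPM in GFP-negative medulla and was rare elsewhere. It had 0.0445, 0.687 and 1.98 CPM in GFP-positive cortex against 8.06, 3.56 and 0.118 CPM in GFP-negative cortex, and 2.01, 0 and 0.261 CPM in GFP-positive medulla. The cortical groups overlapped (-2.11 ± 1.30, adjusted p = 0.312), and in the medulla the difference was -7.56 ± 1.56 (adjusted p = 0.00673), or -10.22 without the first and -6.89 without the second GFP-positive library. Mgl2, a galactose-type lectin, had a log2 fold change of -4.07 ± 0.26 in the cortex and -4.44 ± 0.26 in the medulla, with the lowest adjusted p of the 36 genes in each tissue (3.8e-05 and 2.55e-05), shared with Entpd1 in the cortex and with Fcgr2b in the medulla. Msr1, scavenger receptor A, fell, with log2 fold changes of -4.17 ± 0.38 and -4.89 ± 0.39. Mertk, the receptor kinase for bound apoptotic cells, had 8.55, 14.0 and 5.58 CPM in GFP-positive cortex against 40.3, 62.1 and 53.4 CPM in GFP-negative cortex. In the medulla Mertk had 36.9, 47.5 and 20.3 CPM in GFP-positive cells against 246 and 202 CPM in GFP-negative cells. Like Maf, it had smaller log2 fold changes than the median gene, -2.47 ± 0.38 in the cortex and -2.68 ± 0.40 in the medulla.

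Siglec1 (CD169, sialoadhesin), which binds sialic acid, had 3 counts in all in GFP-positive cortex and 720.0 in GFP-negative cortex. This is a ratio of 205-fold lower, with a 95% counting interval of 70.0 to 998, and the fitted log2 fold change was -7.51 ± 1.14 (adjusted p = 0.00213). In the medulla Siglec1 fell by 4.31 ± 0.84. Lyve1 (chr7:110850607-110863239), a hyaluronan receptor of lymphatic endothelium and of perivascular resident macrophages, was a gene of the medulla. It had 0 counts in each GFP-positive cortex library, which allows up to 0.129 to 0.135 CPM per library, and 0, 0 and 0.827 CPM in GFP-negative cortex. In the medulla Lyve1 had 3.77, 11.5 and 2.35 CPM in GFP-positive cells and 35.8 and 21.3 CPM in GFP-negative cells, without overlap but short of the threshold (-2.27 ± 1.19, adjusted p = 0.221). Timd4, which binds phosphatidylserine on dying cells, had 1 count in all in GFP-positive cortex and 10 in GFP-negative cortex, and 0.929, 0.104 and 0 CPM in GFP-positive medulla against 7.09 and 2.56 CPM in GFP-negative medulla (adjusted p = 0.104). Marco, a collagen-like scavenger receptor, had no count in any cortical library; it had 0.516, 0 and 0 CPM in GFP-positive medulla and 0.767 and 1.95 CPM in GFP-negative medulla (adjusted p = 0.332). Folr2, the folate receptor of resident macrophages, had totals of 3 counts in GFP-positive cortex, 0 in GFP-negative cortex, 8 in GFP-positive medulla and 7 in GFP-negative medulla, too few to test. It shares 63.1% of its exonic bases with a gene on the opposite strand (Gm10602), and without strand information reads there cannot be assigned to either.

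Of the nucleotide receptors and microglial genes, all 4 fell in GFP-positive cells of each tissue, P2ry12 by the least. P2ry12 (chr3:59216272-59262871, reverse strand), the ADP receptor known from microglia and platelets, had 2.98, 1.80 and 1.71 CPM in GFP-positive cortex, against 12.5, 8.74 and 23.3 CPM in GFP-negative cortex. In the medulla it had 34.2, 34.4 and 32.7 CPM in GFP-positive cells, against 87.4 and 86.8 CPM in GFP-negative cells. The groups did not overlap, and the log2 fold change was -2.78 ± 0.36 in the cortex (adjusted p = 0.000921) and -1.37 ± 0.35 in the medulla (adjusted p = 0.02), the smallest called in the medulla. The medulla call of P2ry12 was lost under 4 of the 19 alternatives, each the loss of a medulla library: the first GFP-positive, the third GFP-positive, or either GFP-negative one. P2ry6, a receptor for UDP that triggers phagocytosis in microglia, fell, with log2 fold changes of -3.50 ± 0.43 in the cortex and -4.81 ± 0.47 in the medulla. Entpd1 (CD39), which breaks down extracellular ATP and ADP, had log2 fold changes of -4.0 ± 0.26 and -3.66 ± 0.27. Tmem119, a marker of microglia in the brain, had 0, 0.515 and 0 CPM in GFP-positive cortex against 16.8, 23.8 and 26.3 CPM in GFP-negative cortex, and 6.14, 3.62 and 2.87 CPM in GFP-positive medulla against 117 and 119 CPM in GFP-negative medulla. Its difference was -6.95 ± 0.76 in the cortex, or -12.08 without the second GFP-positive library, where its only counts lay, and -4.81 ± 0.62 in the medulla.

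Both inhibitory and SLAM family receptors fell in each tissue, and Slamf7 had the largest fitted difference among the 30 genes called in the cortex. Slamf7 (chr1:171632403-171653035), a self-binding receptor of the SLAM family on macrophages, NK cells and plasma cells, had 0, 0.258 and 0 CPM in GFP-positive cortex, against 23.8, 18.5 and 40.4 CPM in GFP-negative cortex. In the medulla it had 6.19, 4.59 and 1.51 CPM in GFP-positive cells, against 55.7 and 91.3 CPM in GFP-negative cells. Slamf7 fell, with log2 fold changes of -8.21 ± 0.89 in the cortex (adjusted p = 0.000416) and -4.16 ± 0.66 in the medulla (adjusted p = 0.00174). The value of the cortex rests on 6 counts of the second GFP-positive library, and without that library it was -12.38. Havcr2 (TIM-3), an inhibitory receptor of T cells and myeloid cells, fell, with log2 fold changes of -6.08 ± 0.70 in the cortex, or -7.12 without the same library, and -5.70 ± 0.65 in the medulla. Of the other calls of the cortex, Siglec1 (-8.35), Aif1 (-7.03), Itgax (-6.07), Lyz2 (-5.55), Irf8 (-5.03) and Fcgr3 (-4.86) also moved by over 1.5-fold without that library, and Ptprc (-5.07) and Adgre1 (-4.94) without the first GFP-positive one; all stayed called. In the medulla P2ry6 (-5.41), Tyrobp (-5.21) and Cd68 (-5.07) moved as much without the first GFP-positive library, Itgam (-6.21) without the second, and Spi1 (-3.91) without the second GFP-negative one.

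**Figure D4:**
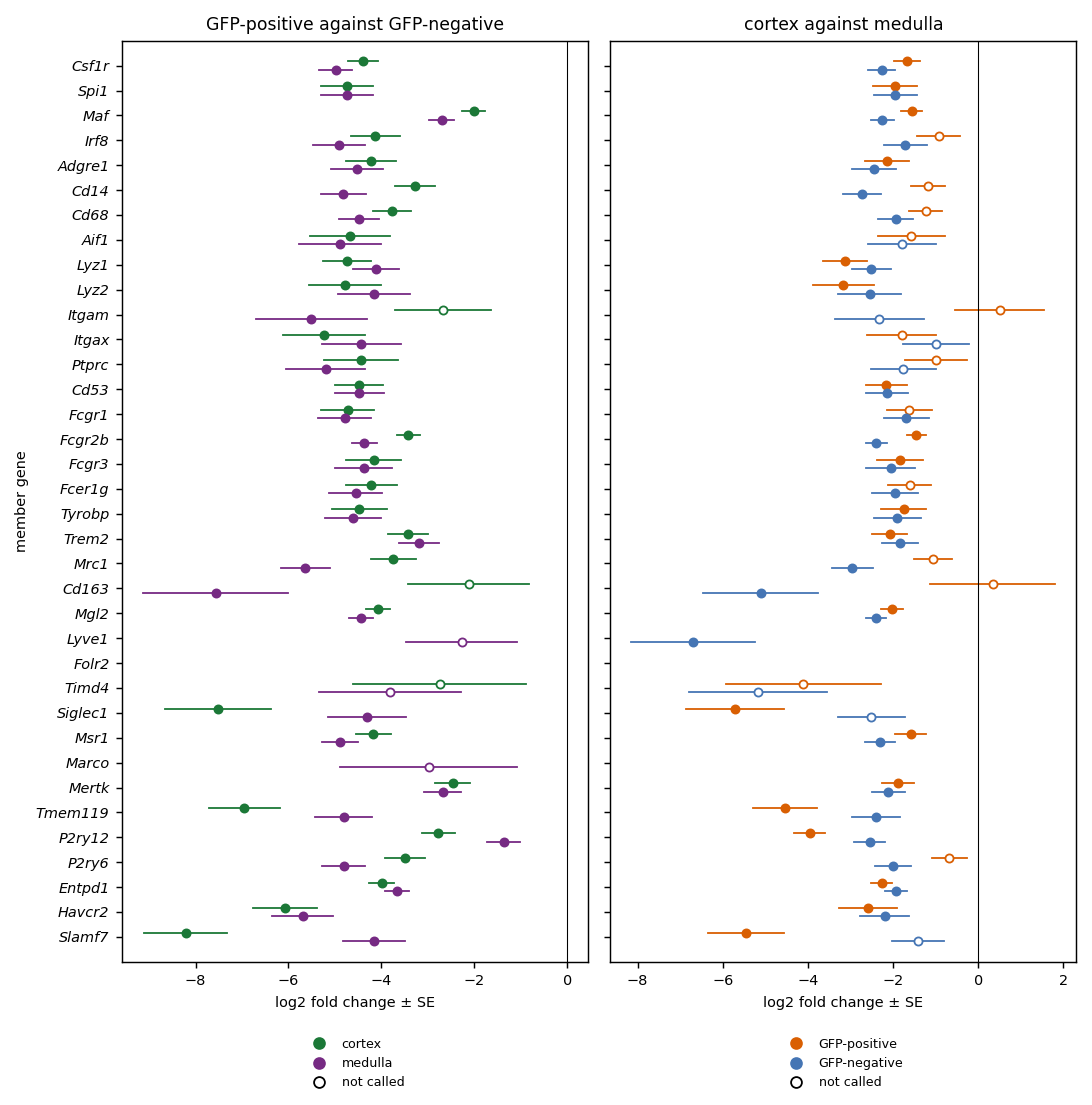
Log2 fold change ± SE (edgeR) of each macrophage gene for GFP-positive against GFP-negative cells of each tissue (left) and for cortex against medulla within each gate (right); open circles did not pass the test, and genes with 0 counts in a compared group, and Folr2, are not drawn. All drawn values on the left are below 0, with Maf, Mertk and P2ry12 the nearest to 0 among those called in the cortex (-2.01, -2.47 and -2.78).

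Within GFP-positive cells, 21 of the 35 tested genes were lower in the cortex than in the medulla and none was higher, where 9.45% of all genes were called lower and 6.04% higher. The median log2 fold change was -1.85, beside -0.03 over all genes. Every cortical library lay below every medullary one in 23 of the 36 genes, as for 18.5% of all genes. The count ran from 14, with the compared libraries alone in the fit, to 26 with DESeq2. The 11 genes called under every alternative were Csf1r, Maf, Cd53, Fcgr2b, Lyz1, Mgl2, Lyve1, Mertk, P2ry12, Entpd1 and Slamf7. Tyrobp and Fcgr3 were called under 7 and 9 of the 19 alternatives. Markers of Schwann cells and chromaffin cells moved in the same direction. The summed level of 8 chromaffin genes was 4.42 to 159.6 CPM in GFP-positive cortex against 6659 to 11998 CPM in GFP-positive medulla. The summed level of 10 Schwann cell and glial genes was 199.9 to 295 CPM in GFP-positive cortex against 2001 to 4740.2 CPM in GFP-positive medulla. Steroid cell markers moved the other way, with 8 of 8 called higher in the cortex. They summed to 59200 to 65542 CPM in GFP-positive cortex and still to 20577 to 35738 CPM in GFP-positive medulla. The part of these cell types in the results was not tested.

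P2ry12 had the lowest adjusted p of the 36 genes between the GFP-positive groups. Its cortical libraries (1.71 to 2.98 CPM) were 15.6-fold below its medullary ones (32.7 to 34.4 CPM), with a log2 fold change of -3.96 ± 0.37 (adjusted p = 0.000253). Lyve1, at 0 counts in GFP-positive cortex and 449 in GFP-positive medulla, was at least 151-fold lower in the cortex when 3 counts over the group are taken as the limit (adjusted p = 0.017). Of these counts 331 lay in the second GFP-positive medulla library, and without it the limit was 69.4-fold. Slamf7 had a log2 fold change of -5.47 ± 0.89, or -9.62 without the second GFP-positive cortex library. Tmem119 had a log2 fold change of -4.54 ± 0.76, or -9.65 without that library. Siglec1, with 3 counts in the cortex and 182.0 in the medulla, was 61.3-fold lower (95% counting interval 20.6 to 300). Lyz2 had -3.17 ± 0.72, Lyz1 -3.13 ± 0.51 and Csf1r -1.68 ± 0.30 (adjusted p = 0.00506). Without the second GFP-positive cortex library the differences of Siglec1, Lyz2, Havcr2 and Fcgr3 were -6.52, -3.91, -3.60 and -2.52, and without the first that of Adgre1 was -2.83. Entpd1, Trem2, Mgl2, Cd53 and Adgre1 differed by -2.27, -2.08, -2.03, -2.16 and -2.14 on the log2 scale, each with an adjusted p under the threshold. Of the 14 genes without a call, Cd163 (0.34 ± 1.47) and Itgam (0.50 ± 1.05) had positive estimates with wide errors that turned negative when the third GFP-positive cortex library was left out, and Mrc1 (-1.06 ± 0.45, adjusted p = 0.149), Cd14 (-1.19 ± 0.40, adjusted p = 0.0765), Ptprc (-1.0 ± 0.73) and P2ry6 (-0.68 ± 0.41) had overlapping groups.

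Within GFP-negative cells, 27 of the 35 genes were lower in the cortex than in the medulla and none was higher, where 10.6% of all genes were called lower and 8.06% higher. The median was -2.25, beside -0.02 over all genes. In 35 of the 36 genes the 3 cortical libraries lay below the 2 medullary ones, as for 26.1% of all genes. The number of calls depended on single libraries: it was 16 without the first or the second GFP-negative cortex library and 12 without the second GFP-negative medulla library. The mice of the cortical libraries were also younger on average, and with age as a covariate the count was 21. The 12 genes called under every alternative were Csf1r, Maf, Adgre1, Cd14, Lyz1, Fcgr2b, Mrc1, Mgl2, Msr1, Mertk, P2ry12 and Entpd1. Chromaffin cell markers moved in the same direction and further, with 8 of 8 called lower in the cortex and summed levels of 0 to 0.236 CPM in GFP-negative cortex against 5794 and 9288 CPM in GFP-negative medulla. Schwann cell and glial markers were lower in 4 of 10, and steroid cell markers higher in 6 of 8. Of the endothelial markers 7 of 15 were called lower in the cortex, with summed levels of 132 to 287 CPM in GFP-negative cortex against 435 and 1293 CPM in GFP-negative medulla; the part of these cell types in the results was not tested.

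In these GFP-negative cells Csf1r was 4.81-fold lower in the cortex (157 to 268 CPM) than in the medulla (974 and 1039 CPM), with a log2 fold change of -2.27 ± 0.32 (adjusted p = 0.00178). The steepest called differences were those of Lyve1 and Cd163. Lyve1 had a log2 fold change of -6.69 ± 1.45 (adjusted p = 0.0165), which was -12.43 without the third GFP-negative cortex library, where its only cortical counts lay, and which lost its call without the second GFP-negative medulla library. Cd163 had -5.11 ± 1.36 (adjusted p = 0.0268), with 0.118 to 8.06 CPM in the cortex against 113 and 158 CPM in the medulla, it stood at -6.24 without the first cortical library, and it lost its call without the second cortical library or without either medullary one. Marco had 0 counts in the cortex and 69 in the medulla, at least 35.1-fold lower with 3 counts over the group as the limit, or 20.3-fold without the second GFP-negative medulla library, but did not pass the test (adjusted p = 0.0774). Mrc1 had a log2 fold change of -2.96 ± 0.48 (adjusted p = 0.00334), and Cd14 of -2.72 ± 0.44 (adjusted p = 0.00346). Smaller differences were those of Spi1 (-1.95 ± 0.50), Irf8 (-1.71 ± 0.51), Fcer1g (-1.96 ± 0.53), Tyrobp (-1.90 ± 0.56), Trem2 (-1.83 ± 0.42) and Fcgr1 (-1.69 ± 0.53), all called, and each lost under 2 to 9 of the 19 alternatives; without the second GFP-negative medulla library Spi1 stood at -1.12. Without a call were Aif1 (-1.80 ± 0.79), Ptprc (-1.76 ± 0.76), Slamf7 (-1.42 ± 0.61), Itgax (-1.0 ± 0.78), Itgam (-2.33 ± 1.04), Siglec1 (-2.51 ± 0.79, adjusted p = 0.0505), Timd4 (-5.17 ± 1.62, adjusted p = 0.0503) and Marco.

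Whether the difference between gates itself differed between cortex and medulla was tested as an interaction. No macrophage gene was called (edgeR quasi-likelihood test), where 1.61% of all genes were called. An unadjusted p under 0.05 was found for 7 of the 35, namely Cd14, Cd163, Fcgr2b, Mrc1, P2ry12, P2ry6 and Slamf7. The share of all genes at that looser cutoff was not computed, so no excess can be read from this count. DESeq2 called 2, Mrc1 and Slamf7, and limma voom called none. The largest interaction estimates of the 7 were those of Cd163 (5.45 ± 1.95, adjusted p = 0.197), Slamf7 (-4.05 ± 1.15, adjusted p = 0.113), Mrc1 (1.89 ± 0.65, adjusted p = 0.181) and Cd14 (1.54 ± 0.59, adjusted p = 0.231). Without the second GFP-positive cortex library the estimate of Slamf7 was -8.14, and that of Cd163 was 8.11 without the first GFP-positive medulla library. A positive value means that the gene fell less in the cortex than in the medulla. P2ry12 (-1.41 ± 0.50, adjusted p = 0.196) and Slamf7 had values of the opposite sign. Scaling by total counts alone moved the median of all genes from -0.02 to -0.19 and the split of calls to 122 higher and 270.0 lower, beside 179 and 158 with TMM scaling, and called no macrophage gene.

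Each gene was also set against Csf1r in the same library, as a ratio of counts without correction for length. Such a ratio describes the mix of genes within macrophages only where the counts of both genes come from macrophages. Other cell types also use some of the genes, such as Maf, and their share of the counts was not tested. The following ratios are descriptions without a test, and the genes named were singled out after their values were seen. P2ry12 had 91.6, 94.7 and 152 counts per 100 Csf1r counts in GFP-positive medulla, against 8.98 and 8.36 in GFP-negative medulla. In the cortex P2ry12 had 33.2, 13.0 and 24.7 in GFP-positive cells, against 7.97, 4.31 and 8.70 in GFP-negative cells. In each tissue all GFP-positive libraries exceeded all GFP-negative ones in the ratio of P2ry12, which was highest in GFP-positive medulla. Per kilobase, P2ry12 had 13.3 ± 0.37 CPM per kb and Csf1r 6.50 ± 1.81 CPM per kb in GFP-positive medulla (SD, n = 3 each). Maf had 124, 140.1 and 196 per 100 Csf1r counts in GFP-positive cortex against 32.0, 28.8 and 25.9 in GFP-negative cortex, and 108, 142 and 176 in GFP-positive medulla against 23.1 and 32.8 in GFP-negative medulla. Mertk had 95, 102 and 80.5 in GFP-positive cortex against 25.6, 30.7 and 19.9 in GFP-negative cortex, and 98.6, 131 and 93.9 in GFP-positive medulla against 25.3 and 19.5 in GFP-negative medulla. For both genes the GFP-negative libraries of cortex and medulla shared a narrow range, and all GFP-positive libraries lay above it. Trem2 had 43.5, 28.9 and 46.5 in GFP-positive medulla against 9.04 and 13.0 in GFP-negative medulla, and Lyve1 had 10.1, 31.7 and 10.9 against 3.67 and 2.05. Other ratios were lower in GFP-positive cortex without overlap. On few counts these were Tmem119 (mean 1.24 against 10.7 in GFP-negative cortex), Slamf7 (0.621 against 13.1) and Siglec1 (0.423 against 4.49). Havcr2 (3.98 against 15.5) and Itgax (12.5 against 25.4) were lower there too. In the medulla the ratios of these genes overlapped between the gates.

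In 22 of the 35 genes set against Csf1r the ratio overlapped between the gates in the cortex, and in 22 of 35 in the medulla. Without overlap, it was higher in GFP-positive cells for 8 genes in the cortex and 11 in the medulla. It was lower there for 5 genes in the cortex and 2 in the medulla. Such ratios were not computed for other genes, so no share over all genes stands beside these counts. Msr1 had 18.8, 24.5 and 20.8 counts per 100 Csf1r counts in GFP-positive cortex against 21.1, 20.8 and 16.1 in GFP-negative cortex, and 18.1, 24.8 and 17.9 in GFP-positive medulla against 20.1 and 18.6 in GFP-negative medulla. The 4 groups of Msr1 overlapped. Cd163 had 16.2 and 10.9 in GFP-negative medulla, against 5.39, 0 and 1.21 in GFP-positive medulla, and 5.12, 1.76 and 0.0441 in GFP-negative cortex. Among GFP-positive cortex libraries Cd163 ran from 0.495 to 28.6, on few counts. In the third of these libraries Lyz2 stood at 143, against 676 and 798 in the other 2, and Ptprc at 4.55, against 123 and 58.7. The GFP-positive cortex libraries differed among themselves in these ratios as well as in the summed level, and the cause was not tested. Maf, Mertk and P2ry12 fell in level in GFP-positive cells, and only their ratio to Csf1r was higher there. The Schwann cell and glial markers were higher in level in GFP-positive cells (8 of 10 called in the cortex and 9 of 10 in the medulla). They had summed levels of 199.9 to 295 CPM in GFP-positive cortex against 4.17 to 12.2 CPM in GFP-negative cortex, and 2001 to 4740.2 CPM in GFP-positive medulla against 19.7 and 28.1 CPM in GFP-negative medulla; Sox10 and Foxd3 had no counts in GFP-negative medulla. Markers of pericytes and smooth muscle were higher too (6 of 10 called in the cortex and 3 of 10 in the medulla), with summed levels of 79.0 to 254 CPM in GFP-positive cortex against 3.06 to 8.89 CPM in GFP-negative cortex, and 174 to 497 CPM in GFP-positive medulla against 145 and 152 CPM in GFP-negative medulla. The part of these cell types in the ratios was not tested.

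**Figure D5:**
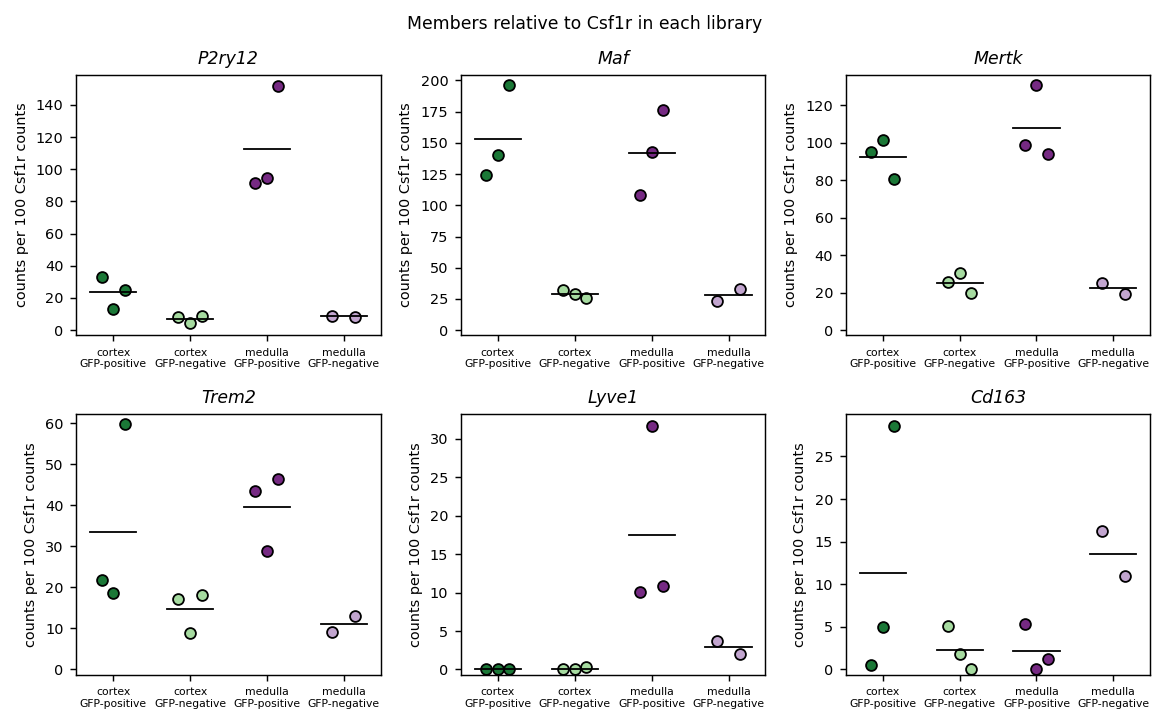
Counts of 6 genes per 100 counts of Csf1r in each library (points; lines are group means; linear axes). P2ry12 is highest in GFP-positive medulla (91.6 to 152) and also higher in GFP-positive cortex (13.0 to 33.2) than in GFP-negative cortex (4.31 to 8.70), Maf and Mertk are high in all GFP-positive libraries, and Cd163 is above 10 in both GFP-negative medulla libraries.

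A wider list of 64 macrophage function genes outside the 36 was followed in the same way. It too was chosen with earlier results of these data known, so it gives no independent check of the 36. In GFP-positive against GFP-negative cortex, 52 were lower and 2 higher, where 7.59% of all genes were called lower and 7.14% higher. The median log2 fold change of the list was -4.38. In the medulla 55 were lower and 1 higher, where 11.1% of all genes were called lower and 10.2% higher. The median there was -4.64. C1qa, a chain of complement C1q made by tissue macrophages, had 41.2, 50.4 and 6.80 CPM in GFP-positive cortex against 494, 547 and 843 CPM in GFP-negative cortex (adjusted p = 0.00251). Cx3cr1, the fractalkine receptor, had 0.980, 4.85 and 2.03 CPM in GFP-positive cortex against 44.9, 58.7 and 128 CPM in GFP-negative cortex (adjusted p = 0.0057). Ccr2, the chemokine receptor of blood monocytes, had 0, 3.26 and 0.0901 CPM in GFP-positive cortex against 9.44, 8.33 and 29.3 CPM in GFP-negative cortex, without a call (adjusted p = 0.0844). In the medulla all 3 fell, with log2 fold changes of -4.83 ± 0.71 for C1qa, -5.70 ± 0.95 for Cx3cr1 and -6.46 ± 1.52 for Ccr2. The genes with the lowest p in the cortex were Cd300a (-5.83 ± 0.42), C5ar1 (-5.83 ± 0.46) and Itgb2 (-4.38 ± 0.38). Those in the medulla were Slc40a1, the iron exporter (-4.04 ± 0.31), Itgb2 (-4.93 ± 0.39), Cd300a (-4.63 ± 0.39) and Irf5 (-5.25 ± 0.44). Beside Il34, the gene higher in GFP-positive cortex was Hmox1, the haem-degrading enzyme that other cells also make, at 389.7 ± 42.9 CPM in GFP-positive and 135 ± 27.0 CPM in GFP-negative cortex (SD, n = 3 each), named after its value was seen.

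Between tissues, 18 of the 64 genes were lower in the cortex and 1 higher (Slc40a1, 1.59 ± 0.28) among GFP-positive cells. Of all genes 9.45% were called lower and 6.04% higher there. Among GFP-negative cells 32 were lower and 1 higher (Pros1, 0.81 ± 0.24, named after its value was seen), beside 10.6% and 8.06% of all genes. The interaction was called for 3 of the 64, beside 1.61% of all genes. These were Csf2ra (1.74 ± 0.31), Hmox1 (1.74 ± 0.34) and Slc40a1 (2.00 ± 0.40), with adjusted p from 0.0297 to 0.0395 (edgeR quasi-likelihood test). Markers of other blood cells were lower in sum than the 36 macrophage genes, but their lists were shorter, at 8 to 14 genes. In the third GFP-positive cortex library B cell and plasma cell markers came near, at 103 CPM beside 127 CPM for the macrophage genes. Summed levels were at most 9.70 CPM in GFP-positive and 52.2 CPM in GFP-negative libraries for T and NK cells, at most 2.40 and 38.9 CPM for granulocytes, and at most 6.61 and 9.86 CPM for mast cells. Markers of B cells and plasma cells summed to 21.8 to 112 CPM in GFP-positive libraries, against 109 to 229 CPM in GFP-negative libraries. The granulocyte genes S100a8 and Elane had no counts in any group. Dendritic cell markers summed to 8.60 to 17.5 CPM in GFP-positive libraries, against 16.3 to 149 CPM in GFP-negative libraries. In the dendritic cell list 2 of 6 tested were lower in GFP-positive cortex and 3 of 6 in GFP-positive medulla, the direction of the macrophage genes. Lower calls in cortex and medulla were 1 of 3 and 2 of 3 for granulocytes, and 1 of 5 and 2 of 5 for B cells and plasma cells. For T and NK cells they were 0 of 4 and 1 of 4, and for mast cells 1 of 3 and 0 of 3. No gene of these lists was called higher in these comparisons. Dendritic cells also express Irf8 and Itgax, and the part of these other blood cells in the results was not tested.

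The authors' deposited tables, which cover 3 of the 4 comparisons between groups, listed 30 of the 36 genes as lower in GFP-positive than in GFP-negative cortex at an adjusted p under 0.05, 31 as lower in GFP-positive than in GFP-negative medulla, and 8 as lower in GFP-positive cortex than in GFP-positive medulla. The statistic in the authors' deposited tables equals the log2 fold change beyond 1 divided by its standard error, a test against a change of 2-fold, so these counts are not comparable with the tests against no change above. None of the 36 was listed as higher in the authors' deposited tables.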

How the data were processed

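RNA of 180 to 300 sorted cells per library was copied with a poly-dT primer and template switching and amplified for 17 cycles without molecular identifiers, per the labels' protocols. Tools listed without settings in the submitters' processing notes are featureCounts 1.6.0, DESeq2 1.18.1, GSNAP 2018-03-11 and bcl2fastq 2.19.1, with mm10 as the build. The deposited table holds raw read counts per gene. The authors' deposited comparison tables hold mean signal, log2 fold changes with standard errors, a test statistic given as a score, and p-values. From them log2 fold changes, adjusted p-values and gene symbols were used. The statistic and the standard errors served only to find the threshold of the authors' test. Shares in percent were computed here from the deposited counts.

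The tests were those of edgeR 4.0.16 under R 4.3.3: filterByExpr by group (20893 of 49671 genes kept), TMM scaling, and quasi-likelihood tests on 1 fit of all 11 libraries, with Benjamini-Hochberg adjustment over all genes tested and a threshold of 0.05. Errors of log2 fold changes are standard errors derived from that test. CPM used TMM-scaled library sizes. Alternatives were RLE scaling, total counts alone, no filter, DESeq2 1.42.0, limma 3.58.1 voom, the compared libraries alone, age as a covariate, the replicate block, and leaving out each library. The procedure was tested on simulated counts with known changes. The 92 spike-in sequences, with 10 counts in all, stayed out. Symbols came from the deposited tables for 25509 genes and from the reference table for 23915; 247 had none. The symbol Itgam has 2 IDs, and the one with the lower number was used. No pair of libraries of the same group agreed within sampling noise, and pairs across groups were not compared in this way.

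The 36 genes and all marker lists were chosen with earlier results of these data known. Every one of the 36 is named; of the listed other genes, the 4 called with the lowest p per list and comparison could be named, plus Csf1, Il34, Cx3cr1, Ccr2, C1qa and Nes. One gene that this rule names is not reported here. Nothing ties a library to a mouse or pool, so p-values may measure technical spread. The mice formed 3 pools. The GFP-positive cortex libraries had ages of 3.5, 3.5 and 2.5 months, and the GFP-positive medulla libraries of 3.5, 2.5 and 2.5 months. If all mice of a pool had the same age, libraries of some group shared a pool.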

Additional observations from a re-analysis of the deposited data

How the results depend on the processing

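The counts of genes called lower kept within 1.5-fold of the values above under all alternatives in the 2 comparisons of gates (30 to 31 in the cortex, 30 to 35 in the medulla) and in the comparison of GFP-positive cells (14 to 26, against 21). Between GFP-negative cells, leaving out 1 library gave 12 to 29 calls against 27, the replicate block gave 18, and voom and the compared libraries alone gave 34 each. For the interaction, DESeq2 called 2 genes, and leaving out 1 library gave 0 to 1. The sign turned for 2 genes, in the comparison of GFP-positive cells and without a call: Itgam, at 0.50, was -0.62 with voom and ran from -0.97 to 1.20 when 1 library was left out, and Cd163, at 0.34, ran from -0.93 to 3.00. The cause was not tested. Same-numbered cortical libraries of the 2 gates had correlated deviations of 0.0954, 0.114 and 0.0523, and medullary ones of 0.0278 and -0.014. Each cortical library correlated best with its own number, a hint from the data and not the design. The numbers were not taken as pairs because the labels tie no library to a pool and ages differ within a number in the medulla. With the replicate block the calls were 31 in the cortex, 32 in the medulla, 19 between GFP-positive cells, 18 between GFP-negative cells and 0 for the interaction. Folr2, with at most 8 counts in a library, was too low at this depth to be tested.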
